A study of Homo sapiens with 6 samples.

Results

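The aldo-keto reductases are enzymes that use NADPH to reduce carbonyl groups of sugars, lipid aldehydes, steroids, prostaglandins and drugs. The AKR1C enzymes, encoded side by side on chromosome 10, reduce steroid hormones and are known targets of the oxidant-responsive factor NRF2. The AKR1B enzymes include aldose reductase, which turns glucose into sorbitol. 8 genes of the family were followed here, AKR1C1, AKR1C2, AKR1C3, AKR1C4, AKR1B1, AKR1B10, AKR1A1 and AKR7A2, through every probe set that the array annotation pairs with their symbols. That made 14 of the 54675 probe sets on the array, a probe set being a group of oligonucleotides that together read a transcript. 1 of the 14 names both AKR1C1 and AKR1C2. The annotation used here pairs no probe set with AKR1B1 or AKR1A1, so these 2 genes were not analysed here.

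The cells were K562, an established human erythroblastic leukemia line, compared before and after it had acquired resistance to methotrexate (MTX), an antagonist of folate metabolism. MTX-resistant K562 cells (3 arrays) were labelled as resistant to 10e-5 M MTX, in the notation of the labels, and parental K562 cells (3 arrays) were sensitive to it. Resistant cells were kept in a medium lacking glycine, hypoxanthine and thymidine, with dialysed serum, and parental cells in Ham's F12, so medium and resistance cannot be told apart. The resistant line had been raised by exposure to increasing MTX, and no source used here says whether it is a clone. Whether the 3 replicates of a group were separate cultures is not labelled, so p-values measure only the spread between these arrays.

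Signals are given as multiples of the median of their array, and values under 1 lie in the range of background. Median deposited signals were 10.2 to 12.5 in resistant arrays and 12.7 to 14.3 in parental arrays. Parental array 1 stood apart. Across probe sets, the Spearman correlation was 0.941 to 0.968 among resistant arrays and 0.969 between parental arrays 2 and 3, whereas parental array 1 correlated with those 2 at 0.899 and 0.889. Resistant arrays correlated with parental array 1 at 0.856 to 0.87, and with parental arrays 2 and 3 at 0.882 to 0.9. Across probe sets parental array 1 was thus not between the groups. Results of the family are therefore given with and without parental array 1. Of the erythroid genes that mark K562 cells, the embryonic globin HBZ was at 620.3 to 713.8 array medians in resistant arrays and 551.3 to 652.7 in parental arrays. The summed signal of 11 erythroid genes was 1274 to 1541 in resistant arrays and 1830 to 1900 in parental arrays. 1 of them was called, HBE1, another embryonic globin, at 73.8, 73.5 and 37.6 in resistant arrays and 670.3, 561.7 and 569.5 in parental arrays (limma adjusted p = 0.00562). HBE1 differed by more between the groups than the summed signal did, so the gap between the sums rests on this 1 gene.

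The stretches of DNA just before the AKR1C starts are shown because the AKR1C genes were the members with the largest differences, and because they let a reader see how alike these neighbouring genes are. The sequences are those of RefSeq on assembly GRCh38.p14, 250 bases ending at the base before each start, 5′ to 3′ on the strand of the gene. AKR1C1 is at chr10:4963165-4963414 on the forward strand, AKR1C2 at chr10:5003858-5004107 on the reverse strand, AKR1C3 at chr10:5048531-5048780 and, for a second start, chr10:5094164-5094413, both forward, and AKR1C4 at chr10:5196587-5196836, forward. Capitals mark ATTGG, the reverse complement of CCAAT, the box bound by the general factor NF-Y.
AKR1C1: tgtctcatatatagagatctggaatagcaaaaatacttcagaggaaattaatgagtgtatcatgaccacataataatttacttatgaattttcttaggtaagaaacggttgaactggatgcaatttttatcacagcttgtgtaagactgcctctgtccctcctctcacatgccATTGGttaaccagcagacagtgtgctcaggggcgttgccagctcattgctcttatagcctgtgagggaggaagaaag
AKR1C2: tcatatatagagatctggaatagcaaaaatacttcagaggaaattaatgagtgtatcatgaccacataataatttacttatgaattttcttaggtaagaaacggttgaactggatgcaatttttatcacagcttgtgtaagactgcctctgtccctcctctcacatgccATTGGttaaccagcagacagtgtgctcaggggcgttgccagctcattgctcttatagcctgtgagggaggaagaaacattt
AKR1C3 first start: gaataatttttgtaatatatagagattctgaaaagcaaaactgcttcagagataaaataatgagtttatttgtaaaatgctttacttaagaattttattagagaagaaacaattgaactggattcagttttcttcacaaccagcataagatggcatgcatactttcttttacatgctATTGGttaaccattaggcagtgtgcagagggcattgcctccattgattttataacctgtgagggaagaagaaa
AKR1C3 second start: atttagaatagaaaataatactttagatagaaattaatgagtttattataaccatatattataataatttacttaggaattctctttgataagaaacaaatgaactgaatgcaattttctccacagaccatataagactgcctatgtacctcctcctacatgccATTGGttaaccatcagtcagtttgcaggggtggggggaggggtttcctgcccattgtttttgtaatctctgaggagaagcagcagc
AKR1C4: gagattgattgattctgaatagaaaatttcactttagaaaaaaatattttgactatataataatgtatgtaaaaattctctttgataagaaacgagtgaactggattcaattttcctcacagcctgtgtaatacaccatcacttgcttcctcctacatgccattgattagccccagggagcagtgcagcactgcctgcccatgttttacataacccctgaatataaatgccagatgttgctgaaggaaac

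The AKR1C1 and AKR1C2 windows held a common run of 245 identical bases, from base 246 to base 2 before the start of AKR1C1 and from base 250 to base 6 before that of AKR1C2. Aligned over their whole length they were 96.5% identical. AKR1C1 shared 72.4% and 69.9% of aligned positions with the first and second AKR1C3 windows, and 64.0% with AKR1C4. CCAAT was searched on both strands after the sequences had been seen. It lay on the reverse strand 77 to 73 bases before the start of AKR1C1, 81 to 77 before that of AKR1C2, and 73 to 69 and 86 to 82 before the first and second starts of AKR1C3. The AKR1C4 window held none, and 32.0% of the 35116 windows of that length in the table held at least 1. These arrays do not tell which AKR1C3 start was used.

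The core letters of the antioxidant response element, TGACNNNGC, were searched on both strands in the same windows. None of the AKR1C windows held them, while the window of AKR7A2 held 3 matches, and 10.9% of all windows held at least 1. A second AKR7A2 window, which overlaps the one shown, held the same matches. Only the 250 bases before each start were searched, so nothing is said of elements farther away. The AKR7A2 window lies at chr1:19312145-19312394 on the reverse strand and is shown with these matches in capitals, since no other member with a window in the table held them.
AKR7A2: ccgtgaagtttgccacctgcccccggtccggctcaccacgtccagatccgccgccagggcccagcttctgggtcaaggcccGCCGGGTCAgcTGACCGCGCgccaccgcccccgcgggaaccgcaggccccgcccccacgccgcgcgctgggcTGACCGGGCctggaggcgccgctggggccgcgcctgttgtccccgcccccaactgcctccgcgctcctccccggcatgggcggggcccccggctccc
The matches were 169 to 161, 158 to 150 and 97 to 89 bases before the start, the first of them on the opposite strand, with no overlap between them. A match of letters is a description of the window and not a measured binding site.

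Of the 14 probe sets, 9 averaged at least 1 array median over the 6 arrays and were tested, and 5 did not and are described by their values alone. The 9 cover AKR1C1, AKR1C2, AKR1C3 and AKR7A2. In a limma fit over all 26692 tested probe sets, with Benjamini-Hochberg adjustment, a call required both an adjusted p under 0.05 and at least a 2-fold difference. 1 of the 9, that of AKR1C3, was called higher in resistant arrays, against 1.2% of all tested probe sets. This probe set averaged 0.928 array medians in parental arrays, so it was tested only through its resistant signals. With no level filter it was still called (limma adjusted p = 0.0389). None of the 9 was called lower, against 1.14%. At an unadjusted p under 0.05, 6 of the 9 were higher, against 9.71% of all tested probe sets, and 1 was lower, against 8.98%. The methods' t-test, run on the same log2 values, also called 1 higher and 0 lower. It took only the test from the study's methods, without the study's software or its filter on signal precision. Resistant arrays lay above all parental arrays in 6 of the 9, against 14.9% of all tested probe sets, and below all of them in 1, against 12.3%. The median log2 difference of the 9 was 1.89, and that of all tested probe sets 0.03. 6 of the 9 read AKR1C1 or AKR1C2, so these counts rest largely on transcripts that share sequence. AKR1C1 and AKR1C2 also stand on the list of changed genes that the study made for this line from these arrays, so their direction is not independent evidence. The methods' t-test as run here called neither gene, so it does not reproduce that list.

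**Figure D1:**
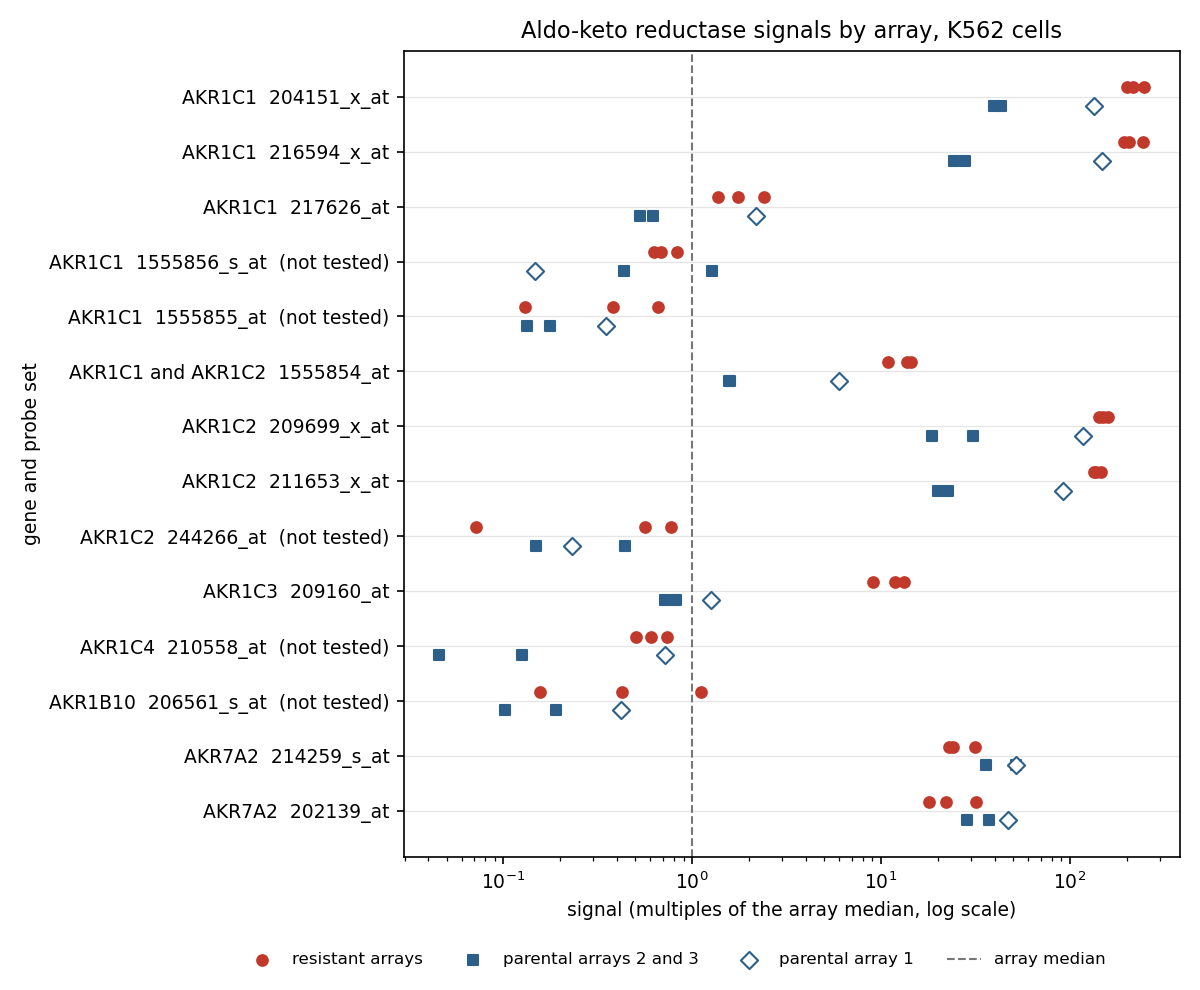
Signal of each of the 14 probe sets on each array, divided by the array median and drawn on a log axis, with resistant arrays (red circles) above parental arrays (blue) in each row and parental array 1 as an open diamond. The AKR1C3 probe set was at 9.05 to 13.2 in resistant arrays and 0.717 to 1.25 in parental arrays, and the bright AKR1C1 and AKR1C2 probe sets put parental array 1 between the resistant arrays and the other parental arrays.

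AKR1C3, which makes prostaglandin F and turns androstenedione into testosterone, had the largest difference of the family. Its only probe set, 209160_at, read 13.2, 11.8 and 9.05 array medians in resistant arrays 1 to 3, and 1.25, 0.817 and 0.717 in parental arrays 1 to 3. The groups did not overlap, and every resistant array was several times brighter than the brightest parental array. Each array reads a whole culture, so more cells with the transcript and more transcript per cell cannot be told apart. AKR1C3 averaged 11.4 ± 2.11 array medians in resistant cells and 0.928 ± 0.284 in parental cells (SD, n = 3 each). The log2 difference was 3.64 with an SE of 0.29, a 12.4-fold higher level in resistant cells (limma adjusted p = 0.00332). The parental signals lay between percentiles 42.0 and 54.5 of their arrays, in the range of background, so the size of the fold is less certain than its direction. The resistant signals lay between percentiles 81.4 and 84.0.

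The AKR1C3 call did not rest on parental array 1. Without it the log2 difference was 3.87 with an SE of 0.25 (limma adjusted p = 0.00283). The probe set is not of a class marked as sharing sequence with other transcripts. It was called in 17 of 17 alternatives, with log2 differences of 2.67 to 3.87 and adjusted p from 0.000256 to 0.046, the highest being that of the methods' t-test.

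AKR1C1, which reduces progesterone to a less active steroid, was read by 5 probe sets of its own. The brightest, 204151_x_at, gave 214.7, 201.0 and 248.4 array medians in resistant arrays 1 to 3, and 134.8, 43.3 and 39.6 in parental arrays 1 to 3. The second, 216594_x_at, gave 206.7, 193.6 and 242.7 in resistant arrays, and 148.6, 28.0 and 24.3 in parental arrays. In both the groups did not overlap, but parental array 1 was closer to the resistant arrays than to the other parental arrays. The folds were 3.60 and 4.58 with limma adjusted p of 0.116 and 0.164, so neither was called. Without parental array 1 the folds were 5.33 and 8.19 and both were called, with limma adjusted p of 0.00625 and 0.00394.

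The third AKR1C1 probe set, 217626_at, gave much weaker signals of 1.76, 2.39 and 1.37 array medians in resistant arrays, and 2.19, 0.527 and 0.622 in parental arrays. Here parental array 1 lay among the resistant arrays and the groups overlapped. The log2 difference was 1.00 with an SE of 0.57 (limma adjusted p = 0.396), and 1.65 without parental array 1 (limma adjusted p = 0.047). In the latter fit 217626_at was tested only through its resistant signals, because parental arrays 2 and 3 averaged 0.574. The other 2, 1555855_at and 1555856_s_at, were not tested. They were under the array median on every array but parental array 2, where 1555856_s_at reached 1.28, and their groups overlapped.

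AKR1C2, which reduces dihydrotestosterone and binds bile acids, was read by 3 probe sets of its own. 209699_x_at gave 148.9, 142.8 and 160.0 array medians in resistant arrays 1 to 3, and 117.5, 30.7 and 18.6 in parental arrays 1 to 3. 211653_x_at gave 134.5, 136.7 and 145.4 in resistant arrays, and 91.8, 22.7 and 19.9 in parental arrays. As for AKR1C1, the groups did not overlap and parental array 1 stood well above the other parental arrays. The folds of 3.70 and 4.01 were not called (limma adjusted p = 0.191 and 0.143), and without parental array 1 they were 6.30 and 6.52 and were called (limma adjusted p = 0.0103 and 0.0042). The last probe set, 244266_at, was at 0.0720 to 0.775 in resistant arrays and 0.150 to 0.443 in parental arrays and was not tested.

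The probe set that names both genes, 1555854_at, gave 14.4, 13.8 and 10.9 array medians in resistant arrays 1 to 3, and 6.01, 1.59 and 1.57 in parental arrays 1 to 3. The groups did not overlap, and parental array 1 again lay between the resistant arrays and the other parental arrays. The log2 difference was 2.39 with an SE of 0.54, a 5.25-fold higher level in resistant cells that missed the threshold (limma adjusted p = 0.0858). It was called in 4 of 17 alternatives, among them that without parental array 1 (8.20-fold, limma adjusted p = 0.00414).

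The 4 bright probe sets end in _x_at, a class whose oligonucleotides can match other transcripts, and AKR1C1 and AKR1C2 transcripts are known to be nearly alike, as the DNA before their starts is in the windows above. Their levels therefore cannot be assigned to either gene with certainty. Over these 4 the resistant mean was 1.28 to 1.64 times the signal of parental array 1, and parental array 1 was 3.25 to 5.69 times the mean of parental arrays 2 and 3. Spread was small among resistant arrays, where the highest and lowest differed by 0.11 to 0.33 on the log2 scale, and large among parental arrays, where they differed by 1.77 to 2.66. In parental array 1 these probe sets lay between percentiles 97.6 and 98.7, and in resistant arrays between 98.2 and 99.2.

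Parental array 1 was the highest of the parental arrays in 8 of the 9 tested probe sets, and in 43.9% of all tested probe sets. Without it 7 of the 9 were called higher, against 2.38% of the 26597 probe sets then tested. The 6 that joined AKR1C3 were the tested probe sets of AKR1C1 and AKR1C2. Of the 7, AKR1C3 and 217626_at averaged under 1 array median in parental arrays 2 and 3 and were tested only through resistant arrays. Parental array 1 also differed in other genes. The summed signal of 17 epithelial markers was 238 to 327 array medians in resistant arrays, 658 in parental array 1, and 349 and 283 in parental arrays 2 and 3. KRT18 and KRT8 made up most of that sum, at 352.1 and 166.4 in parental array 1. Their probe sets end in _x_at, the class that can match other transcripts. Of the 11 epithelial markers tested, 10 were higher in parental array 1 than in the mean of the other parental arrays. Without parental array 1 only 6 of the list averaged at least 1 array median, so the filter in part fixed this count. None of the 17 was under the median on every array, but CDX2, CLDN4, ESRP1, GRHL2, KRT20 and LGALS4 were too low to be tested. CDH1, the junction protein E-cadherin, was at 0.0894 to 0.373 in resistant arrays, 21.8 in parental array 1, and 2.01 and 0.717 in parental arrays 2 and 3. The part of these genes in the AKR1C values was not tested.

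**Figure D2:**
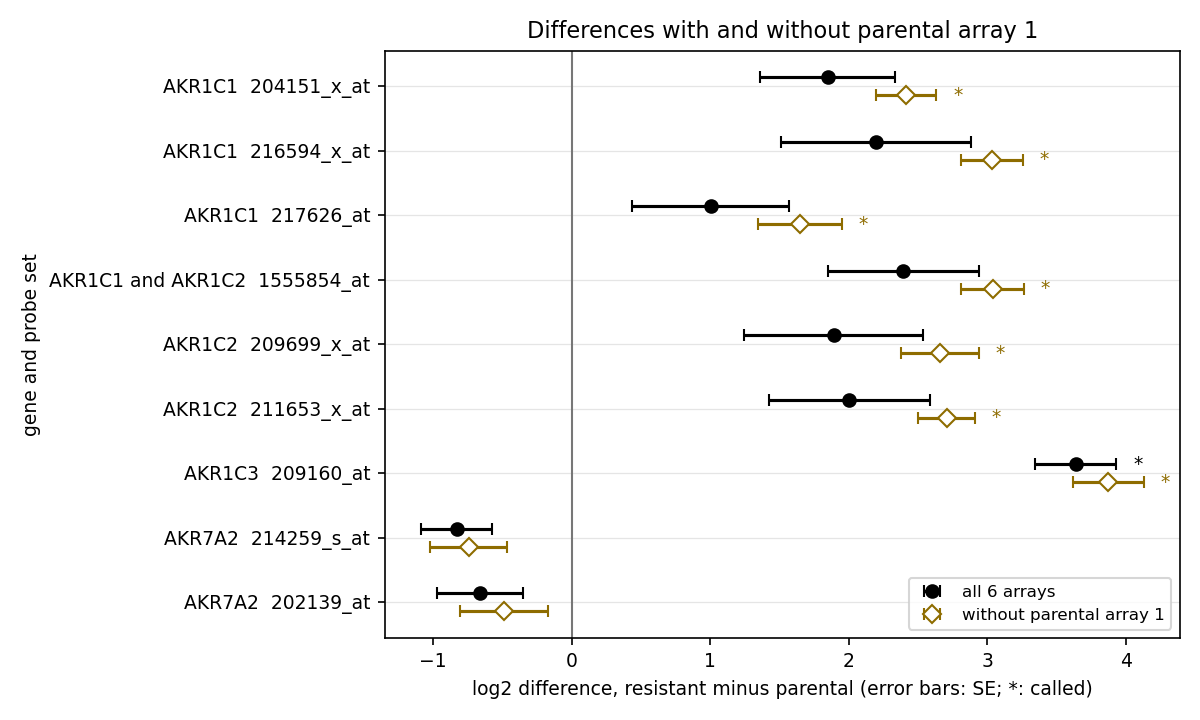
Log2 difference, resistant minus parental, of the 9 tested probe sets with its SE, with all 6 arrays (black circles) and without parental array 1 (open diamonds), and an asterisk where a probe set was called. AKR1C3 was called in both, the 6 probe sets of AKR1C1 and AKR1C2 only in the fit without parental array 1, and AKR7A2 in neither.

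Markers of the liver, where AKR1C genes are strongly expressed, were listed too. The summed signal of 12 hepatocyte markers was 42.7 to 54.3 array medians in resistant arrays and 11.6 to 21.0 in parental arrays. A single gene, TF, made up most of the sum in resistant arrays and most of its difference from parental arrays. Only 3 of the 12 were bright enough to be tested, TF, CYP2E1 and CYP3A4. CYP2E1 was tested only through its resistant signals, since it averaged 0.627 in parental arrays, in the range of background. CYP3A4 overlapped between the groups (limma adjusted p = 0.482). TF, the iron carrier transferrin, was at 37.9, 33.1 and 45.3 in resistant arrays and 2.94, 13.0 and 7.68 in parental arrays (limma adjusted p = 0.0725). CYP2E1, a cytochrome P450, was at 3.14, 2.38 and 2.00 in resistant arrays and 1.06, 0.573 and 0.252 in parental arrays (limma adjusted p = 0.0949). Neither overlapped between the groups, and both were called higher without parental array 1 (limma adjusted p = 0.0324 and 0.0299). ALB, APOB, FGB and FGG, which define hepatocytes, were under the array median on every array. The part of these genes in the AKR1C values was not tested.

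AKR1C4, a liver enzyme of bile acid synthesis, stayed near background. Its probe set 210558_at gave 0.732, 0.504 and 0.608 array medians in resistant arrays, and 0.713, 0.0458 and 0.126 in parental arrays. All values were under the array median and the groups overlapped through parental array 1. AKR1B10, which reduces retinal and lipid aldehydes, was read by 206561_s_at, with 0.423, 1.11 and 0.157 in resistant arrays, and 0.420, 0.191 and 0.102 in parental arrays. Only resistant array 2 exceeded the median. Neither gene passed the level filter, and at these signals a difference was not detectable. When all probe sets were tested with no such filter, none of the 5 dim ones of the family was called.

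AKR7A2, which reduces succinic semialdehyde and aldehydes of aflatoxin, lay lower in resistant arrays, with no call. Its probe set 202139_at gave 31.8, 22.2 and 17.9 array medians in resistant arrays 1 to 3, and 47.1, 37.1 and 28.6 in parental arrays 1 to 3, and the groups overlapped. 214259_s_at gave 24.1, 22.8 and 31.5 in resistant arrays, and 51.9, 52.1 and 36.0 in parental arrays, with no overlap. The log2 differences were -0.66 (SE 0.31, limma adjusted p = 0.316) and -0.83 (SE 0.26, limma adjusted p = 0.162). Without parental array 1 they were -0.49 and -0.74 (limma adjusted p = 0.43 and 0.203). Neither probe set was called in any alternative that held it, with adjusted p from 0.0639 to 0.586. 214259_s_at ends in _s_at, a class counted here among shared-sequence probe sets, so it was absent from the alternative without them.

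Signals of AKR1C3 and AKR1C1 were also set against each other within each array. The log2 ratio of the AKR1C3 signal to the AKR1C1 signal (209160_at over 204151_x_at) was -4.02, -4.09 and -4.78 in resistant arrays 1 to 3, and -6.75, -5.73 and -5.79 in parental arrays 1 to 3. Only its change has a meaning, because probe sets differ in brightness. All resistant arrays were above all parental arrays. The difference of the means was 1.79 on the log2 scale (two-sided exact permutation test, p = 0.1, the smallest that 20 regroupings of 3 against 3 arrays allow), so the design could not reach the threshold. Without parental array 1 it was 1.46. Its size is as uncertain as the parental AKR1C3 signals, which lay in the range of background.

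None of the genes next to the AKR1C cluster was called higher. The 5 nearest tested genes before the cluster, from ADARB2-AS1 to KLF6, had log2 differences of -0.40 to 0.56, none called. The 5 after it, from UCN3 to ASB13, had differences of -2.32 to 0.44, and 1 was called. That was TUBAL3, a tubulin alpha-like gene, which was at 2.46, 2.78 and 1.84 array medians in resistant arrays and 17.1, 12.8 and 7.28 in parental arrays (log2 difference -2.32, limma adjusted p = 0.031). Around AKR1B1 and AKR1B10 on chromosome 7, the 5 genes before had differences of -0.90 to 0.68 and the 5 after -6.84 to -0.40. The called gene there was CALD1, which encodes the actin-binding protein caldesmon and was at 0.0784 to 0.208 array medians in resistant arrays and 13.8 to 19.0 in parental arrays (limma adjusted p = 0.00167). Across all genes, taking 1 probe set for each of 11810 genes, 1.3% were called higher and 1.47% lower.

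**Figure D3:**
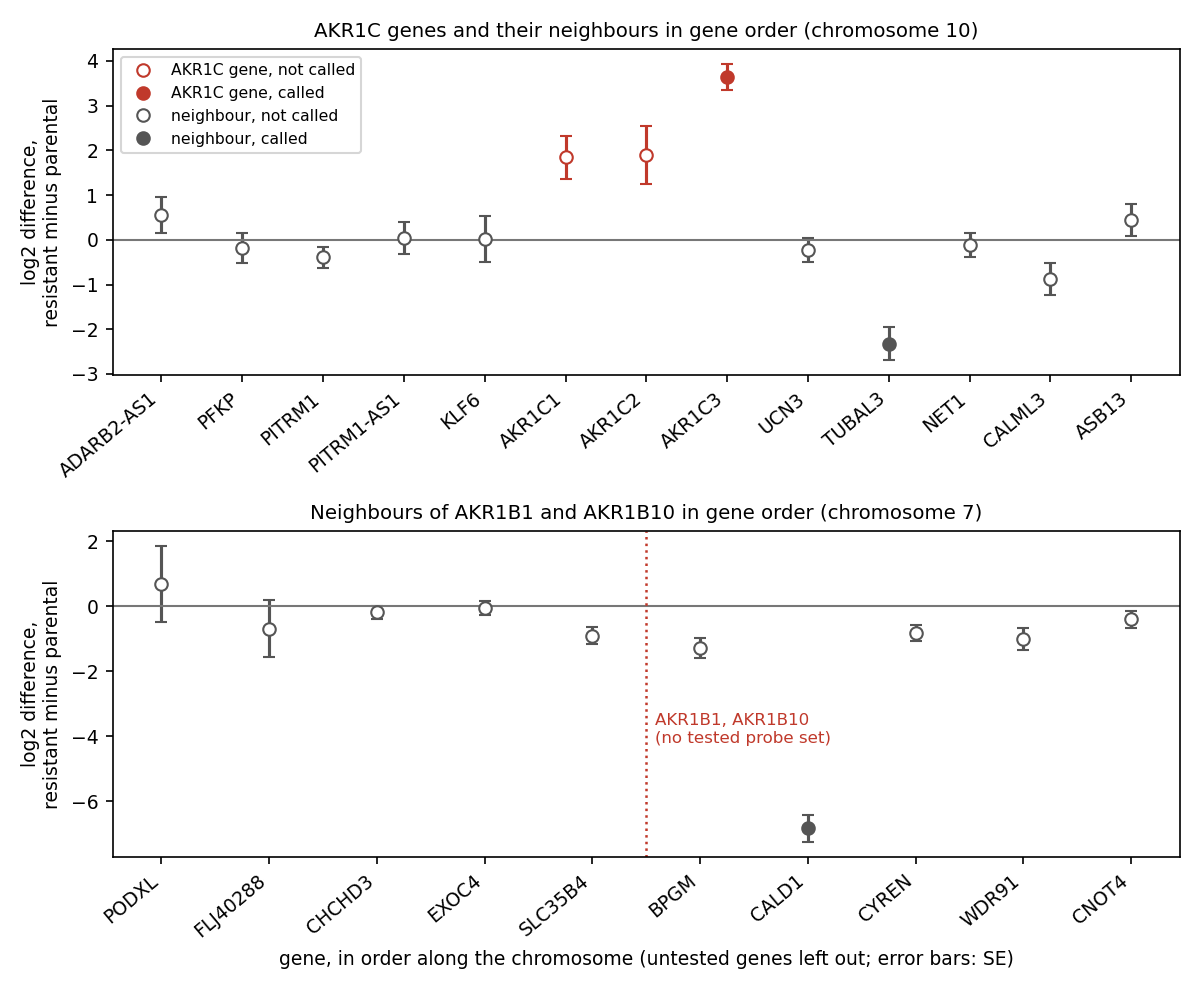
Log2 difference, resistant minus parental, with its SE, for the AKR1C genes and the 5 nearest tested genes on each side (above) and for the neighbours of AKR1B1 and AKR1B10 (below), in gene order and not to scale. Filled points were called. AKR1C3 stood at 3.64, AKR1C1 at 1.85 and AKR1C2 at 1.89, and the genes on either side of the AKR1C cluster between -2.32 and 0.56.

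Among 1354 other genes that varied over the 6 arrays (SD of at least 1 on the log2 scale), those whose log2 signals followed AKR1C1 most closely were VWA5A, PLEKHA1, RSAD2, ANXA4 and KIF21A, with a Pearson r of 0.998 to 0.995. VWA5A was at 37.8, 35.0 and 40.8 array medians in resistant arrays, and 21.3, 7.99 and 6.80 in parental arrays. RSAD2, the interferon-induced protein viperin, was at 60.9, 47.5 and 74.5 in resistant arrays, and 33.0, 6.98 and 4.78 in parental arrays. Like AKR1C1 they had parental array 1 between the groups, and none of the 5 was called. The genes that followed AKR1C3 most closely were MTARC2, ATP6AP1L, SNORA71A, TMEM167A and ZCCHC9, with a Pearson r of 0.998 to 0.992, and all 5 were called higher. MTARC2, a mitochondrial reductase of N-hydroxylated compounds, was at 23.8, 21.8 and 15.4 in resistant arrays, and 1.78, 1.28 and 1.29 in parental arrays. These correlations describe 6 arrays that share a group difference, and the genes were picked for their likeness.

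Related genes were counted in 8 lists. These hold other aldo-keto reductases, enzymes and transporters tied to the family by substrates, products or cofactor, and NRF2 with its partners and targets. They cover 126 genes, of which 87 were tested. By limma none was called higher and 2 were called lower, against the shares of all genes given above, 1.3% and 1.47%. At an unadjusted p under 0.05, 13 were higher, against 10% of all genes, and 18 were lower, against 9.97%. The methods' t-test called 0 higher and 1 lower. Their median log2 difference was 0.01, against 0.02 for all tested genes. Without parental array 1, 4 were called higher, against 2.54% of all genes, and 5 lower, against 2.25%.

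The other aldo-keto reductases on the array stayed low or did not pass the test. AKR7A3, a close relative of AKR7A2, was at 4.27, 4.02 and 3.42 array medians in resistant arrays, and 7.91, 5.40 and 3.98 in parental arrays (limma adjusted p = 0.413). Its probe set ends in _x_at, the class that can match other transcripts, so the level cannot be assigned to AKR7A3 with certainty. AKR1D1, the steroid 5-beta-reductase, was under the median on every array. Of 14 short-chain carbonyl reductases tested, none was called, and the smallest adjusted p was that of DHRS11, at 21.5, 15.4 and 11.96 in resistant arrays, and 39.4, 32.7 and 25.6 in parental arrays (limma adjusted p = 0.15). In the fit without parental array 1, DHRS1, DHRS7 and RDH10 of this list were called higher, with log2 differences of 1.12, 1.53 and 1.81. These 3 were named after their values were seen.

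Of 12 hydroxysteroid dehydrogenases and steroid reductases tested, which act on the same steroids as the AKR1C enzymes, none was called. The smallest adjusted p was that of HSD17B8, at 1.10, 0.256 and 1.37 array medians in resistant arrays, and 2.48, 2.31 and 2.82 in parental arrays (limma adjusted p = 0.195). 6 genes of this list were under the median on every array, among them HSD3B1 and HSD3B2, which act early in steroid hormone synthesis. Of 11 aldehyde dehydrogenases, which oxidise the aldehydes that aldo-keto reductases reduce, none was called. ALDH1A2, which makes retinoic acid, was at 0.0569, 0.960 and 0.853 in resistant arrays, and 120.1, 14.2 and 8.98 in parental arrays, with no overlap (limma adjusted p = 0.0857).

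Of 8 prostaglandin enzymes tested, 1 was called, lower in resistant cells. PTGS1, a cyclooxygenase that starts prostaglandin synthesis upstream of AKR1C3, was at 2.29, 1.40 and 2.41 array medians in resistant arrays, and 9.22, 12.3 and 11.6 in parental arrays. The groups did not overlap, and the level was 5.55-fold lower in resistant cells (log2 difference -2.47, SE 0.29, limma adjusted p = 0.0113). Without parental array 2 it was not called (limma adjusted p = 0.0572). Its probe set ends in _x_at, the class that can match other transcripts, so the level cannot be assigned to PTGS1 with certainty. PTGS2, the inducible cyclooxygenase, was under the median on every array.

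The polyol and lactaldehyde genes (8 tested) and the NADPH suppliers (11 tested) had no call. GLO1, which clears methylglyoxal, was at 336.9, 304.0 and 311.8 array medians in resistant arrays, and 196.1, 191.8 and 173.7 in parental arrays (limma adjusted p = 0.108). ME3, a mitochondrial malic enzyme, had the smallest adjusted p of the NADPH list, at 1.00, 0.648 and 0.686 in resistant arrays, and 1.62, 1.88 and 1.36 in parental arrays (limma adjusted p = 0.101).

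Of 21 tested genes of the list of NRF2 and its targets outside the family, 1 was called lower and none higher, and the list's median log2 difference was 0.27. PIR, the iron-binding nuclear protein pirin, was at 1.02, 0.920 and 0.529 array medians in resistant arrays, and 25.4, 26.9 and 24.5 in parental arrays. The fitted log2 difference was -5.01 (SE 0.30, limma adjusted p = 0.0016), whose size is uncertain because the resistant signals lay in the range of background. PIR stayed called when each array was left out in turn. TRIM16, a ubiquitin ligase, was called higher in the fit without parental array 1 (log2 difference 2.78, limma adjusted p = 0.0159) and was named after its values were seen. In that fit ALDH4A1, PLA2G4A and PTGDS were called lower beside PTGS1 and PIR.

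**Figure D4:**
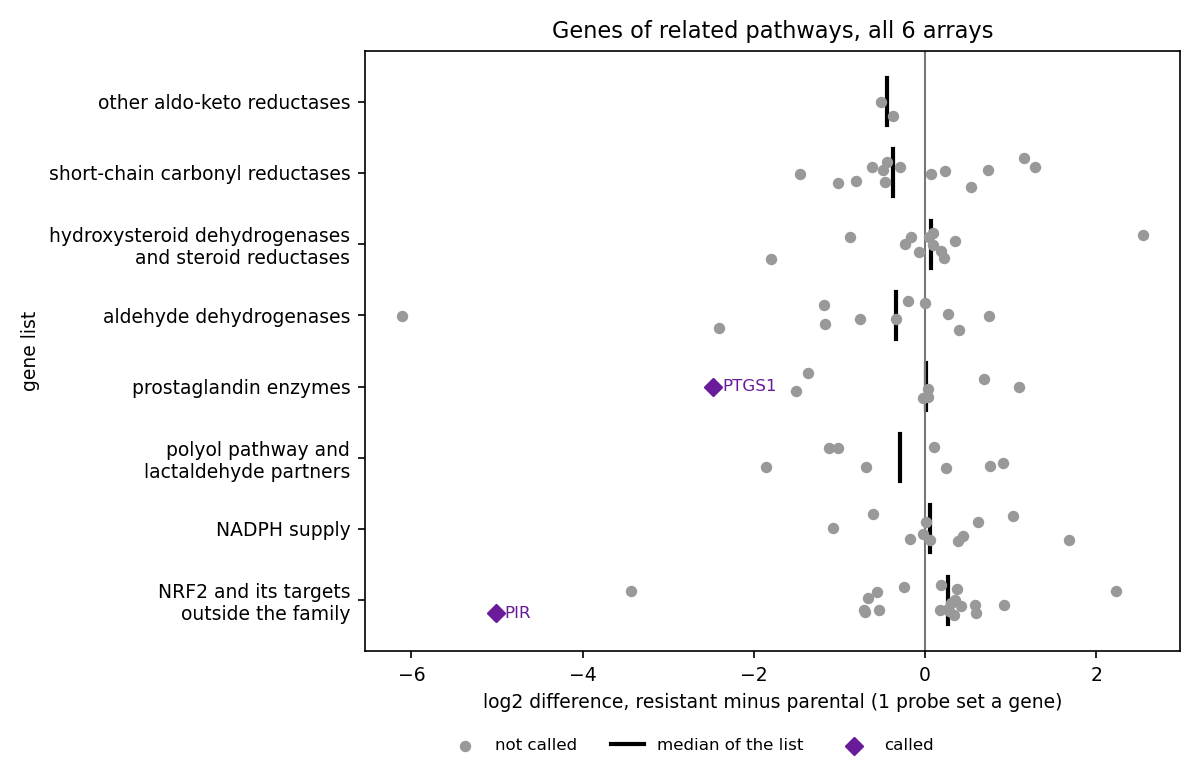
Log2 difference, resistant minus parental, of the 87 tested genes in 8 lists of related genes (grey points). The median of each list is a black bar and called genes are purple diamonds. Vertical scatter within a list has no meaning. The 2 called genes, PTGS1 at -2.47 and PIR at -5.01, were lower in resistant cells, and the medians lay between -0.44 and 0.27.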

How the data were processed

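Gene expression was measured on 6 Affymetrix human whole-genome arrays of K562 cells, 3 resistant to MTX and 3 parental, grouped and numbered by the labels. The deposited values were intensities on a linear scale, 1 per probe set, made by the authors with MAS5, which the submitters' processing notes name without a version. Each intensity was scaled to its own array's median, and values at or under 0.01 of it were set to 0.01 before log2 was taken. The 62 manufacturer's controls and probe sets averaging under 1 array median were left out, which left 26692. Groups were compared with limma (version 3.58.1 in R 4.3.3), by lmFit and eBayes, two-sided, and the fit was tested on simulated data. The simulated arrays had independent noise and none that stood apart, so they say nothing of the effect of parental array 1. The number of arrays limits the precision.

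Probe sets were named through the platform annotation, in which 41097 name 1 gene, 1801 several and 11777 none. For lists and neighbours the tested probe set of highest mean log2 level stood for a gene. Gene order and promoter windows are those of RefSeq (GRCh38.p14), and windows were aligned with Biopython (version 1.88). No protein sequences were used here.

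The members, gene lists and tests were chosen with earlier results of these data known. The text names every member, up to 3 called genes of each list or else the 1 with the smallest adjusted p, 5 neighbours on each side, and the 5 genes most like AKR1C1 and AKR1C3. Other genes, markers included, were picked with their values in view. The alternatives were 3 other scalings, 2 other level filters, 2 pseudocounts, limma with a robust prior and a trend on intensity, the methods' t-test, a replicate block, leaving out shared-sequence probe sets, and leaving out each array.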

Additional observations from a re-analysis of the deposited data

How the results depend on the processing

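No log2 difference of a member changed sign under any of the alternatives, and no probe set of the family was called lower under any. Of the whole array, 319 probe sets were called higher and 303 lower. Those counts were 205 higher with values as deposited, 97 and 77 with no level filter, 455 lower with a pseudocount of 0.25 array medians, 599 and 592 with one of 1, 563 and 570 with limma's trend and robust prior, 82 and 44 with the methods' t-test, and 204 and 190 without shared-sequence probe sets. Leaving out 1 array gave 103 to 633 higher and 79 to 447 lower. With values as deposited the median of all probe sets shifted to -0.18 and 39.3% of calls were higher, against 51.3%. Of the family, 1 probe set was called higher, against 2 with a level filter of 2 array medians, 3 with a pseudocount of 1, 2 with the trend and robust prior, and 1 to 7 when leaving out 1 array, the 7 being without parental array 1. Of the related genes, 0 were called higher and 2 lower, against 1 and 4 with a level filter of 2, 1 and 4 with a pseudocount of 0.25, 3 and 5 with one of 1, 3 and 4 with the trend and robust prior, 1 lower with no level filter, with the methods' t-test and without shared-sequence probe sets, and 0 to 4 higher and 1 to 5 lower when leaving out 1 array. The cause was not tested. The AKR1C3 over AKR1C1 difference of 1.79 was 1.95 with the mean of all tested probe sets of each gene.

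Same-numbered arrays showed no shared deviation from their group means, with correlations of -0.03 to -0.01. The labels do not say whether they were paired, and 3 arrays in each group cannot settle it. With a replicate block, 133 probe sets were called higher and 136 lower, 1 related gene was called lower, and AKR1C3 was the 1 member called (limma adjusted p = 0.0194). Signals near background limit AKR1C4, AKR1B10 and the parental level of AKR1C3.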
